A study of Mus musculus with 24 samples.

Results

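The genes described are 10 established astrocyte genes, Gfap, Aqp4, Aldh1l1, Slc1a2, Slc1a3, Aldoc, Glul, Gja1, Gjb6 and Vim. They were taken by gene symbol from a table of 47593 genes, and all 10 were found. Hippocampal RNA was sequenced from 24 male C57BL/6J mice aged 8 to 12 weeks in 8 groups of 3. Wild type (WT) mice and mice with a conventional knockout of Tob, annotated as Tob1 (Tob-KO), were either naive, that is never conditioned, or had been killed at an interval of 15 min, of 1 h or of 3 h after fear conditioning, in which a tone was paired with foot shocks. Each library holds poly(A) RNA of hippocampal tissue from a mouse, so all cell types are mixed, and fewer astrocytes cannot be told apart from less RNA of a gene per astrocyte. The comparisons asked whether these genes changed after conditioning and whether they differed between the genotypes.

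Astrocytes are the glial cells that take up glutamate and potassium released by neurons, contact blood vessels with their end-feet and form networks through gap junctions. The 10 genes cover these functions. Gfap and Vim encode intermediate filament proteins of the astrocyte cytoskeleton, Slc1a2 (GLT-1) and Slc1a3 (GLAST) the main glial glutamate transporters, and Glul glutamine synthetase, which converts glutamate to glutamine. Aqp4 encodes the water channel of the end-feet, Gja1 and Gjb6 the gap junction proteins connexin 43 and connexin 30, Aldoc the brain form of fructose-bisphosphate aldolase and Aldh1l1 a folate enzyme used as a general astrocyte marker.

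Total counts ranged from 28847989 to 41595972 per library, and 0.612 to 0.768% of them fell on the 10 genes. The smallest count of any of the genes in a library was 964, for Vim, and the largest 126801, for Slc1a2, so that counting error was smaller than the spread over libraries for all 10. Tob1 itself was at 33.91 to 44.47 CPM (counts scaled by library size and TMM factor) in the WT libraries and at 52.12 to 68.31 CPM in those labelled Tob-KO. A count per gene cannot show which exons were read, so this higher level cannot tell whether the deletion is present. Every Tob-KO value below therefore means a library carrying that label. The summed level of 12 choroid plexus markers ran from 195 to 7300 CPM across libraries, with wide ranges inside most groups.

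Of the 2 genes whose level changed most clearly after conditioning, Gja1 has a promoter entry in RefSeq that can be shown. It lies on the forward strand of chromosome 10 (GRCm38), and the table of promoters, from 250 bases before to 50 bases after each gene start, held entries for 9 of the 10 genes. These were searched on both strands for 8 short motifs, namely TATAAA (the core promoter box), TGACGTCA (CRE), TGACG (CRE core, also contained in the full CRE), TGANTCA (AP-1), TGTTCT (GRE core), TTGGCA (NFI core), TTCNNNGAA (STAT) and CACGTG (E-box). Gja1 held AP-1 and CRE core letters. They are shown with the Gfap window that holds STAT letters, with the motif in capitals and on the strand of the gene (GRCm38.p6).
Gja1, AP-1, chr10:56377270-56377299: ctccttccagtTGAGTCAgtggcttgaaac
Gja1, CRE core, chr10:56377087-56377116: ccccgcagtagcTGACGtacatctagagct
Gja1, CRE core on the opposite strand, chr10:56377129-56377158: ttttccccttctCGTCAgcacattgaaact
Gfap, STAT, chr11:102897183-102897212, reverse strand: atgggggtgcTTCCAGGAAgtcaggggcag
AP-1 letters occurred in 7.81%, CRE core letters in 20.8% and STAT letters in 8.3% of 32851 promoters of the same length. None of the 8 motifs was found in the Gjb6 window. CRE core letters were also found in the window of Slc1a3, which passed no test of time, and STAT letters in those of Slc1a3 and Aldoc. TATAAA was found in the windows of Vim and Slc1a3, GRE core letters in that of Slc1a3 and NFI core letters in that of Aldoc. These are matches of letters only.

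All 10 genes were well expressed in each of the 24 libraries. Per kilobase of annotated exon, the order of their median levels was Glul at 437.6, Slc1a2 at 234.2, Aldoc at 210.2, Gfap at 95.87, Slc1a3 at 69.59, Aqp4 at 25.53, Gjb6 at 22.37, Gja1 at 17.4, Aldh1l1 at 11.54 and Vim at 8.653 CPM per kb. Neighbours in this order with overlapping ranges over the libraries were Slc1a2 and Aldoc, Gfap and Slc1a3, Aqp4 and Gjb6, Gjb6 and Gja1, and Aldh1l1 and Vim. Glul, at 373.8 CPM per kb in its lowest library, stayed above the highest Slc1a2 value of 256.8 CPM per kb. The length used joins the exons of all annotated transcripts of a gene, which need not all be expressed, so the order depends on it. Gja1 has 10257 bp and Gjb6 2674 bp of such exon. Gja1 came below Gjb6 per kilobase although its median was 178.5 CPM against 59.82 CPM.

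On the scale of CPM, which is used from here on and does not correct for length, the genes differed in how much they varied. Slc1a2 ranged from 2693 to 3373 CPM and Glul from 1242 to 1714 CPM. Aldoc ranged from 601.6 to 856.1, Slc1a3 from 519.7 to 706.7 and Gfap from 341.9 to 488.7 CPM. The membrane channel genes were lower, with Gja1 at 159.4 to 215.9, Aqp4 at 128.6 to 196.3 and Gjb6 at 38.08 to 71.82 CPM. Aldh1l1 ranged from 47.06 to 58.26 and Vim from 33.48 to 53.34 CPM. The coefficient of variation over the 24 libraries was lowest for Aldh1l1 (5.47%) and Slc1a2 (5.5%) and highest for Gjb6 (12.9%) and Vim (12.6%). Within groups it was lowest for Slc1a2 (3.4%) and Gja1 (4.75%), with Aldh1l1 at 5.65%. For the coefficient over the 24 libraries, the median of the 10 genes was 8.09%, against 5.82% for the 6501 genes at a mean of at least 30 CPM. The libraries were not alike in which genes were extreme: replicate 2 of WT at 15 min was the highest of all 24 for Gfap, Slc1a2, Aldoc, Glul and Gja1, while replicate 2 of Tob-KO at 15 min was the lowest for Aldoc, Glul and Gjb6.

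**Figure D1:**
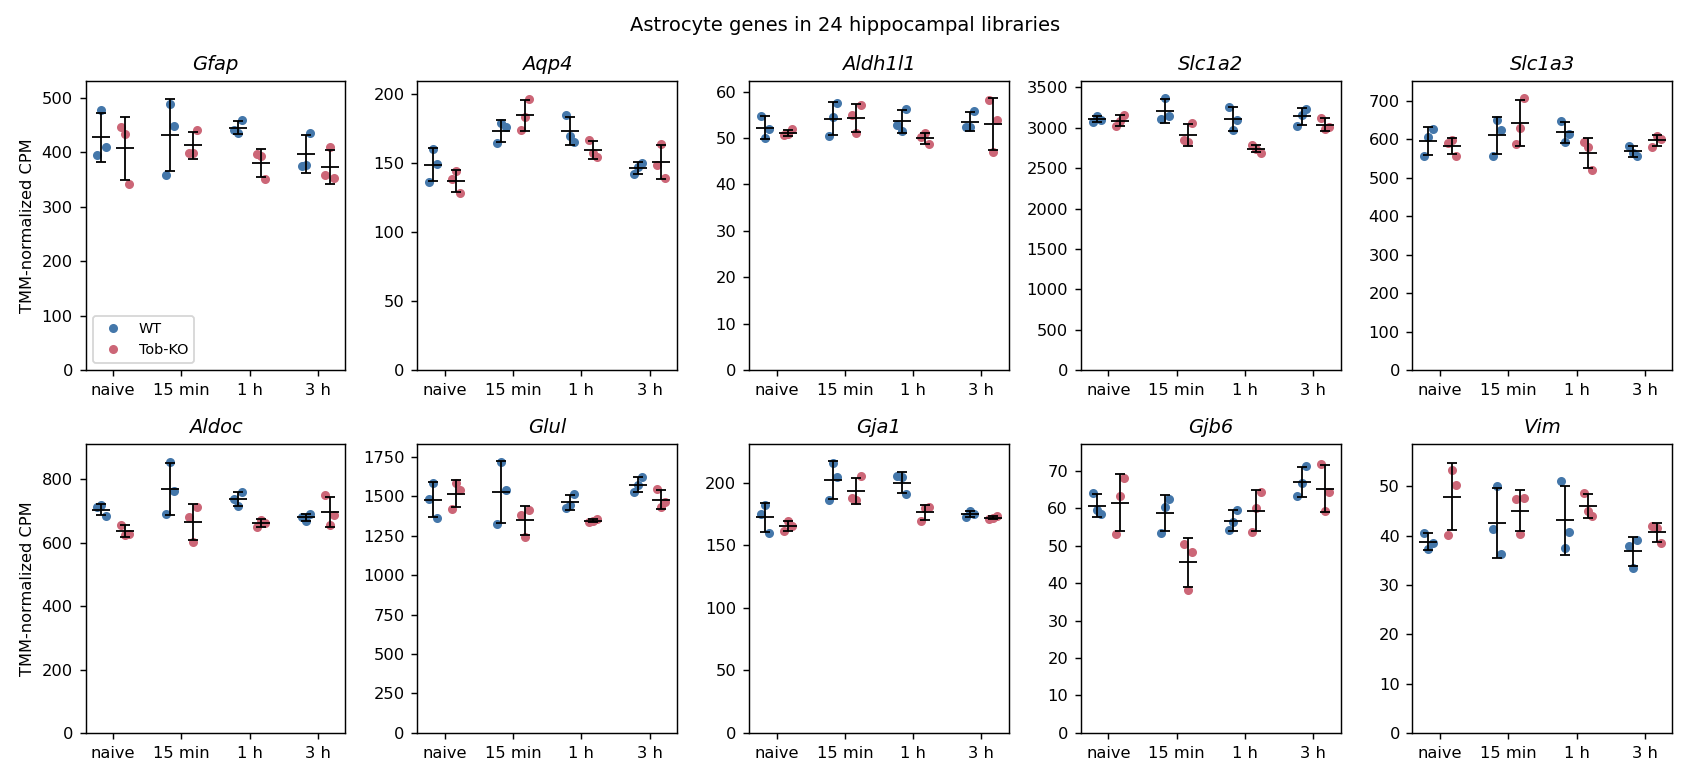
Level of each gene in each library (points, TMM-normalized CPM, axis from 0) by time point for WT and Tob-KO mice, with the mean and SD of 3 mice as bars. Aqp4 and Gja1 stood higher at 15 min than in naive mice in both genotypes, and Gjb6 was lowest in Tob-KO mice at 15 min.

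Aqp4 and Gja1 rose after conditioning when both genotypes were fitted together, at 15 min and at 1 h, and neither passed the test at 3 h. Gjb6 fell at 15 min in Tob-KO mice. The other 7 genes, which include the filament, glutamate transporter and metabolic genes, passed no test of time. The test was the quasi-likelihood F test of edgeR, fitted to all 24 libraries and 19500 genes. A gene was called where its Benjamini-Hochberg FDR did not exceed 0.05, whatever its fold change. The 3 comparisons with naive mice share the naive libraries.

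In WT mice, Aqp4 was at 136.5, 160.5 and 149.8 CPM when naive and at 164.4, 179.2 and 176.4 CPM at 15 min. It was at 184.9, 170.0 and 165.4 CPM at 1 h and at 141.9, 147.4 and 150.5 CPM at 3 h. Every WT library at 15 min and 1 h was above every naive WT library, and the libraries at 3 h lay within the naive range. In Tob-KO mice, Aqp4 was at 138.4, 144.4 and 128.6 CPM when naive and at 174.1, 183.7 and 196.3 CPM at 15 min. It was at 166.7, 157.7 and 154.6 CPM at 1 h and at 149.0, 164.0 and 139.7 CPM at 3 h. Again all libraries at 15 min and 1 h lay above all naive ones, while those at 3 h overlapped them.

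Over both genotypes, the Aqp4 difference at 15 min was 0.33 on the log2 scale (SE 0.051, 1.25-fold, adjusted p = 0.00131, edgeR), and the 6 libraries at 15 min did not overlap the 6 naive ones. At 1 h it was 0.22 (SE 0.052, 1.16-fold, adjusted p = 0.0117), and at 3 h 0.06 (95% interval -0.05 to 0.16, adjusted p = 0.754). Within Tob-KO mice the rise at 15 min was called by itself, at 0.43 (SE 0.066, 1.35-fold, adjusted p = 0.00284), but not when only the 6 libraries compared were fitted (adjusted p = 0.0914). In WT mice the difference at 15 min was 0.22 (SE 0.066, adjusted p = 0.42) and was not called. The difference between these changes was 0.21 on the log2 scale and was not tested by itself. The interaction of genotype and time point, tested jointly over 15 min, 1 h and 3 h, was not called (adjusted p = 0.953, edgeR). An antisense gene, AC133525.2, overlaps Aqp4 in the annotation. As the strand setting of the counting is not given in the sources used here, this overlap could have raised or lowered the Aqp4 count.

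Gja1 was at 174.8, 182.0 and 159.4 CPM in naive WT mice and at 185.7, 215.9 and 204.0 CPM at 15 min. It was at 205.1, 204.1 and 190.5 CPM at 1 h and at 172.8, 177.5 and 175.1 CPM at 3 h. The WT libraries at 15 min and 1 h were all above the naive ones. In Tob-KO mice, Gja1 was at 161.4, 169.0 and 165.0 CPM when naive, at 187.3, 186.4 and 204.8 CPM at 15 min and at 169.2, 179.4 and 180.1 CPM at 1 h. By 3 h the 3 Tob-KO libraries gave 171.0, 171.6 and 173.2 CPM. In the knockout, each of the later libraries was above each naive one, although the nearest pair was close at 1 h (169.2 against 169.0 CPM) and at 3 h (171.0 CPM).

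The Gja1 difference over both genotypes was 0.23 at 15 min (SE 0.039, 1.17-fold, adjusted p = 0.00224) and 0.16 at 1 h (SE 0.039, 1.11-fold, adjusted p = 0.0184), with no overlap of the 6 and 6 libraries at 15 min. At 3 h it was 0.04 (95% interval -0.04 to 0.12, adjusted p = 0.763). At 15 min the genotypes gave nearly the same estimate, 0.23 in WT mice (SE 0.054, adjusted p = 0.2) and 0.22 in Tob-KO mice (SE 0.054, adjusted p = 0.0315), although only the latter was called. At 1 h the estimates were 0.22 (adjusted p = 0.107) and 0.09 (adjusted p = 0.415). The interaction was not called for Gja1 (adjusted p = 0.953).

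The number of genes called must be read against all genes tested. Those include genes down to 0.2 CPM, whereas the 10 genes were at 33.48 CPM or more in every library. The shares of all genes are therefore not shares of genes at like levels. Over both genotypes, 2 of the 10 genes were called at 15 min, where 4.7% of all genes were called and 1.68% were called higher. At 1 h 2 were called, where 6.15% of all genes were and 2.45% were called higher. At 15 min, 2 of the 10 did not overlap between the 6 and 6 libraries, against 1.33% of all genes, and at 1 h none did (3.66%). In Tob-KO mice, 3 of 10 were called at 15 min (2.51% of all genes) and 0 at 1 h (1.13%). These shares of all genes rested on single libraries. The 490 genes called at 15 min became 40 without 15 min replicate 3, 134, 135 and 261 without naive replicates 2, 3 and 1, 226 without 15 min replicate 1 and 817 without 15 min replicate 2. The 220 called at 1 h became 250 without naive replicate 3 and 0 to 79 without each of the other 5 libraries in turn. Over both genotypes, the 917 genes called at 15 min ranged from 366 (without Tob-KO 15 min replicate 3) to 1623 (without WT naive replicate 1), and the 1200 at 1 h from 670 (without Tob-KO 1 h replicate 2) to 1284 (without WT naive replicate 1). In WT mice 0 of 10 were called at 15 min (0.0462%) and at 1 h (0.185%), where 2 genes, Aqp4 and Gja1, had an unadjusted p under 0.05 at each time (8.71% and 10.8% of all genes) and did not overlap the naive libraries (10.6% and 16.1%). In WT mice, the 9 genes called at 15 min became 1 to 15 and the 36 at 1 h became 0 to 11 with a library left out. By DESeq2, 1 gene, Gja1, was called in WT mice at each of these times. At 3 h 0 genes of the whole table (0%) were called by edgeR in either genotype or in both together, and 0 of the 10 had an unadjusted p under 0.05 over both genotypes, against 9.05% of all genes.

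**Figure D2:**
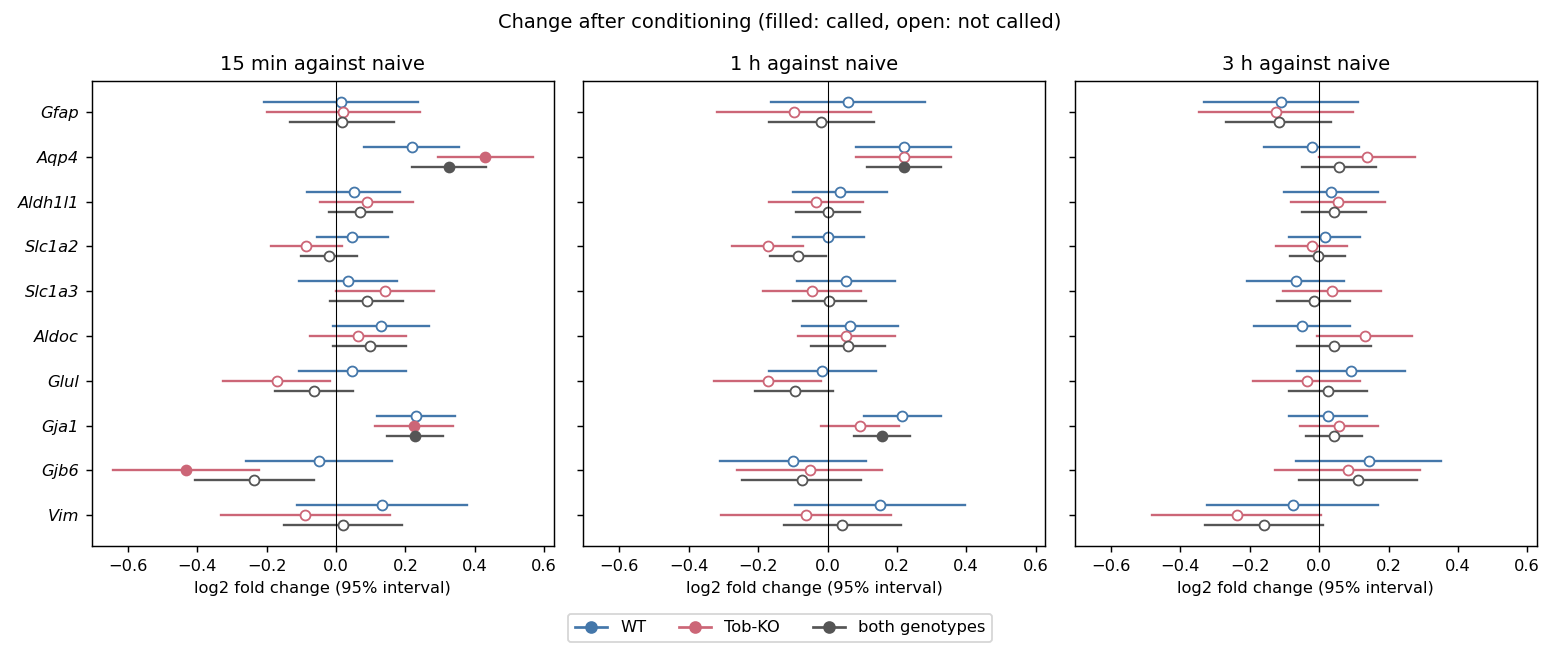
Log2 fold change of each gene against naive mice for each later time point, for WT, Tob-KO and both genotypes together, with 95% intervals from the fit over 24 libraries. Filled points passed the test: Aqp4 and Gja1 over both genotypes at 15 min and 1 h, and Aqp4, Gja1 and Gjb6 in Tob-KO mice at 15 min.

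The second connexin gene, Gjb6, did not follow Gja1. In Tob-KO mice it was at 53.1, 63.17 and 68.15 CPM when naive and at 50.32, 38.08 and 48.31 CPM at 15 min. It was at 53.51, 60.04 and 64.39 CPM at 1 h and at 71.82, 59.35 and 64.2 CPM at 3 h. The libraries at 15 min were all below the naive ones, the nearest pair being close, and those at 1 h and 3 h overlapped them. In WT mice it was at 64.09, 59.37 and 58.55 CPM when naive, at 53.33, 60.21 and 62.47 CPM at 15 min, at 54.05, 56.28 and 59.59 CPM at 1 h and at 63.15, 66.68 and 71.14 CPM at 3 h, so the WT libraries at 15 min and 1 h overlapped the naive ones.

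The fall of Gjb6 at 15 min in Tob-KO mice was -0.43 on the log2 scale (SE 0.101, 0.741-fold, adjusted p = 0.0293), whereas WT mice gave -0.05 (SE 0.101, adjusted p = 0.932). The interaction was tested jointly over all later time points, not for 15 min by itself. Among the 10 genes its unadjusted p was smallest for Gjb6 (0.028), and it was not called (adjusted p = 0.953, edgeR). Of the whole table, 0 genes (0%) were called for it, and 797 (4.09%) reached an unadjusted p under 0.05. The Gjb6 call rested on single libraries: it was lost without naive replicate 2 (-0.41, adjusted p = 0.0793), naive replicate 3 (-0.35, adjusted p = 0.105), 15 min replicate 2 (-0.32, adjusted p = 0.0707) or 15 min replicate 3 (-0.47, adjusted p = 0.109) of the Tob-KO mice. The Gja1 call in Tob-KO mice was also lost without naive replicate 1, 2 or 3 or 15 min replicate 1 or 3 (adjusted p of 0.0511 to 0.235), while that of Aqp4 remained in all 6 of these fits.

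Within a library, the ratio of Gja1 to Gjb6 counts needs no scaling between libraries. In Tob-KO mice it was 3.04, 2.67 and 2.42 when naive, 3.72, 4.9 and 4.24 at 15 min, 3.16, 2.99 and 2.8 at 1 h and 2.38, 2.89 and 2.7 at 3 h. In WT mice it was 2.73, 3.07 and 2.72 when naive, 3.48, 3.59 and 3.27 at 15 min, 3.8, 3.63 and 3.2 at 1 h and 2.74, 2.66 and 2.46 at 3 h. In both genotypes every library at 15 min had a higher ratio than every naive library. At 1 h this was so in WT mice only, and the Tob-KO libraries overlapped the naive ones. As these ratios combine genes already described, they were not tested.

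**Figure D3:**
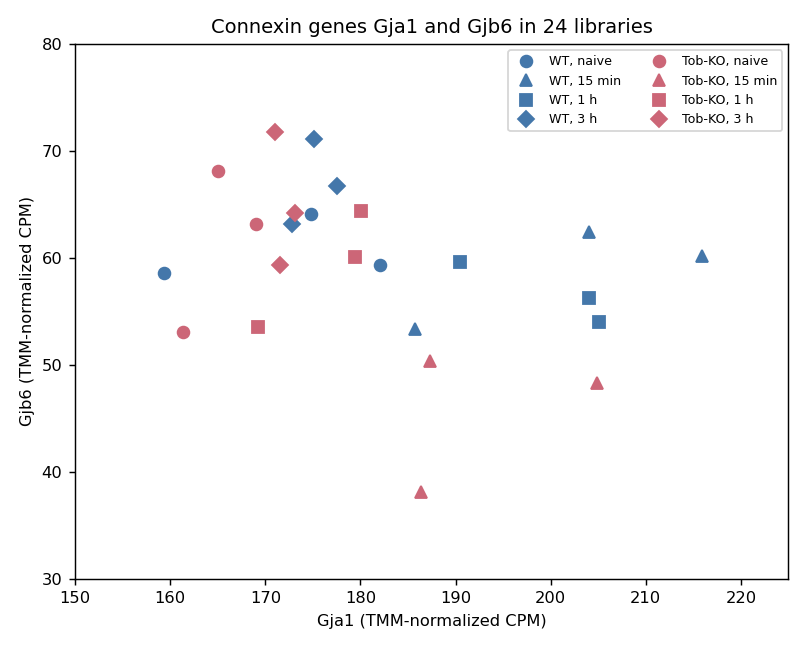
Gjb6 against Gja1 in the 24 libraries (TMM-normalized CPM on both axes, which do not start at 0), with colour for genotype and symbol for time point. The Tob-KO libraries at 15 min lie at 38.08 to 50.32 CPM of Gjb6, and all 6 libraries at 15 min lie at or above 185.7 CPM of Gja1.

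Gfap, the gene most often used to follow astrocyte reactivity, did not pass any test of time. Over both genotypes its difference from naive mice was 0.02 at 15 min (95% interval -0.13 to 0.17), -0.02 at 1 h (-0.17 to 0.13) and -0.12 at 3 h (-0.27 to 0.03). Naive mice alone spanned 395.2, 478.5 and 409.4 CPM in WT and 446.8, 433.8 and 341.9 CPM in Tob-KO. The other filament gene, Vim, differed from naive mice by 0.02 at 15 min (95% interval -0.15 to 0.19), 0.04 at 1 h (-0.13 to 0.21) and -0.16 at 3 h (-0.33 to 0.01).

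The glutamate transporter genes were steadier. Slc1a2 differed from naive mice over both genotypes by -0.02 at 15 min (95% interval -0.1 to 0.06), -0.09 at 1 h (-0.17 to -0.01, adjusted p = 0.215) and -0.00 at 3 h (-0.08 to 0.08). In Tob-KO mice it was at 3024, 3080 and 3154 CPM when naive and at 2781, 2741 and 2693 CPM at 1 h, with no overlap, and the difference of -0.17 (SE 0.049, adjusted p = 0.0789) did not pass the test. By DESeq2 the same difference was called. In WT mice Slc1a2 was at 3073, 3148 and 3092 CPM when naive and at 3262, 2969 and 3098 CPM at 1 h. Slc1a3 differed from naive mice by 0.09 at 15 min (95% interval -0.02 to 0.19), and its highest library, at 706.7 CPM, was a Tob-KO library at 15 min.

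Of the metabolic genes, Glul differed by -0.17 at 15 min (SE 0.074, adjusted p = 0.239) and by -0.17 at 1 h (SE 0.074, adjusted p = 0.263) in Tob-KO mice, with no overlap with the naive libraries at either time and no call. In all, 4 of the 10 genes did not overlap between naive and 15 min in Tob-KO mice, Aqp4, Gja1, Gjb6 and Glul, where 19.2% of all genes did not. At 1 h these were Aqp4, Gja1, Slc1a2 and Glul (20.8% of all genes), and at 3 h 1 gene, Gja1 (14.9%). Aldoc differed by 0.1 at 15 min over both genotypes (95% interval -0.01 to 0.2). Aldh1l1 differed by 0.07 at 15 min (-0.02 to 0.16), 0.00 at 1 h (-0.09 to 0.09) and 0.04 at 3 h (-0.05 to 0.14).

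No gene of the 10 was called between Tob-KO and WT mice at any time point. This comparison used the exact test of edgeR on 3 against 3 libraries, with a call needing an FDR up to 0.05 together with a fold change of 2 or more, as in the methods of the study. The adjusted p values at each time point are from this test. The standard errors and interval widths are from the quasi-likelihood fit over 24 libraries, so the 2 do not belong to the same test. Over all genes, 0.0218% were called in naive mice, 0.555% at 15 min, 0.033% at 1 h and 0.0274% at 3 h. Without the limit on fold change, 0 of the 10 were called at each time too, against 0.0381, 0.746, 0.121 and 0.0657% of all genes. The number of the 10 with an unadjusted p under 0.05 was 1 in naive mice (4.04% of all genes), 2 at 15 min (8.05%), 5 at 1 h (5.34%) and 0 at 3 h (3.97%). The quasi-likelihood test and DESeq2, with the same limits, called 0 of the 10 at each time as well.

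At 1 h, 7 of the 10 genes, Gfap, Aldh1l1, Slc1a2, Slc1a3, Aldoc, Glul and Gja1, had all 3 Tob-KO libraries below all 3 WT libraries, where 11.5% of all genes had groups that did not overlap and 6.06% lay lower in this way. The median log2 difference of the 10 genes was -0.12, against -0.00 over all genes. Gfap stood at 441.1, 436.0 and 459.8 CPM in WT mice against 397.8, 393.8 and 351.6 CPM in Tob-KO mice, a difference of -0.22 on the log2 scale (95% interval -0.45 to -0.00, adjusted p = 0.151). Gja1 differed by -0.18 (95% interval -0.29 to -0.07, adjusted p = 0.277) and Slc1a2 by -0.18 (-0.28 to -0.08, adjusted p = 0.448). Of 30 further astrocyte genes, 27 were lower in Tob-KO mice at 1 h, with a median of -0.14, 14 had groups that did not overlap and 0 were called. Markers of other cells also differed in these libraries: all 8 oligodendrocyte markers were lower in Tob-KO mice (median -0.17, 6 not overlapping, 0 called), with summed levels of 5447 to 5587 CPM against 5838 to 6678 CPM, and the choroid plexus sum was 3343 to 5023 CPM against 258.3 to 3843 CPM. Of 8 mural and fibroblast markers, 5 were higher and 3 lower in Tob-KO mice (median 0.25), 5 did not overlap and 0 were called, although the smallest adjusted p was 0.000289 at a difference short of the fold limit, and their sum was 215.2 to 249.9 CPM against 185.9 to 222.7 CPM. No oligodendrocyte, mural, fibroblast or choroid plexus marker was at 0 in any library. Their part in the lower astrocyte values was not tested.

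The lower values were not seen at 3 h, when 0 of the 10 genes were free of overlap (12.2% of all genes) and the median was -0.02. In naive mice 1 gene, Aldoc, did not overlap (11.5% of all genes), with 711.1, 717.5 and 684.7 CPM in WT mice against 657.1, 625.6 and 627.7 CPM in Tob-KO mice (log2 difference -0.14, 95% interval -0.28 to -0.00, adjusted p = 1). At 15 min, Slc1a2 and Gjb6 did not overlap (13.5% of all genes). Gjb6, with 53.33, 60.21 and 62.47 CPM in WT mice against 50.32, 38.08 and 48.31 CPM in Tob-KO mice, differed by -0.37 (SE 0.101, adjusted p = 0.133) and was not called. Without replicate 1 of Tob-KO at 15 min its adjusted p was 0.0281, with the difference at -0.44, still short of the fold limit.

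Averaged over the 4 time points, 9 of the 10 genes were lower in Tob-KO mice and Vim was higher, by at most 0.16 on the log2 scale, and none was called (0.462% of all genes were). Slc1a2 differed by -0.1 (SE 0.027, adjusted p = 0.118), Aldoc by -0.12 (SE 0.037, adjusted p = 0.148) and Gja1 by -0.08 (SE 0.028, adjusted p = 0.184). Vim differed by 0.16 (SE 0.058, adjusted p = 0.233). As all cell types are mixed in a library, which cells the Vim RNA came from was not tested. An unadjusted p under 0.05 was reached by 6 of the 10, against 13.3% of all genes. DESeq2 called 1 of the 10, Slc1a2, with the same direction. For the 10 genes, the 95% intervals of the averaged difference lay between -0.22 and 0.28, so differences of 2-fold fell outside all of them.

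**Figure D4:**
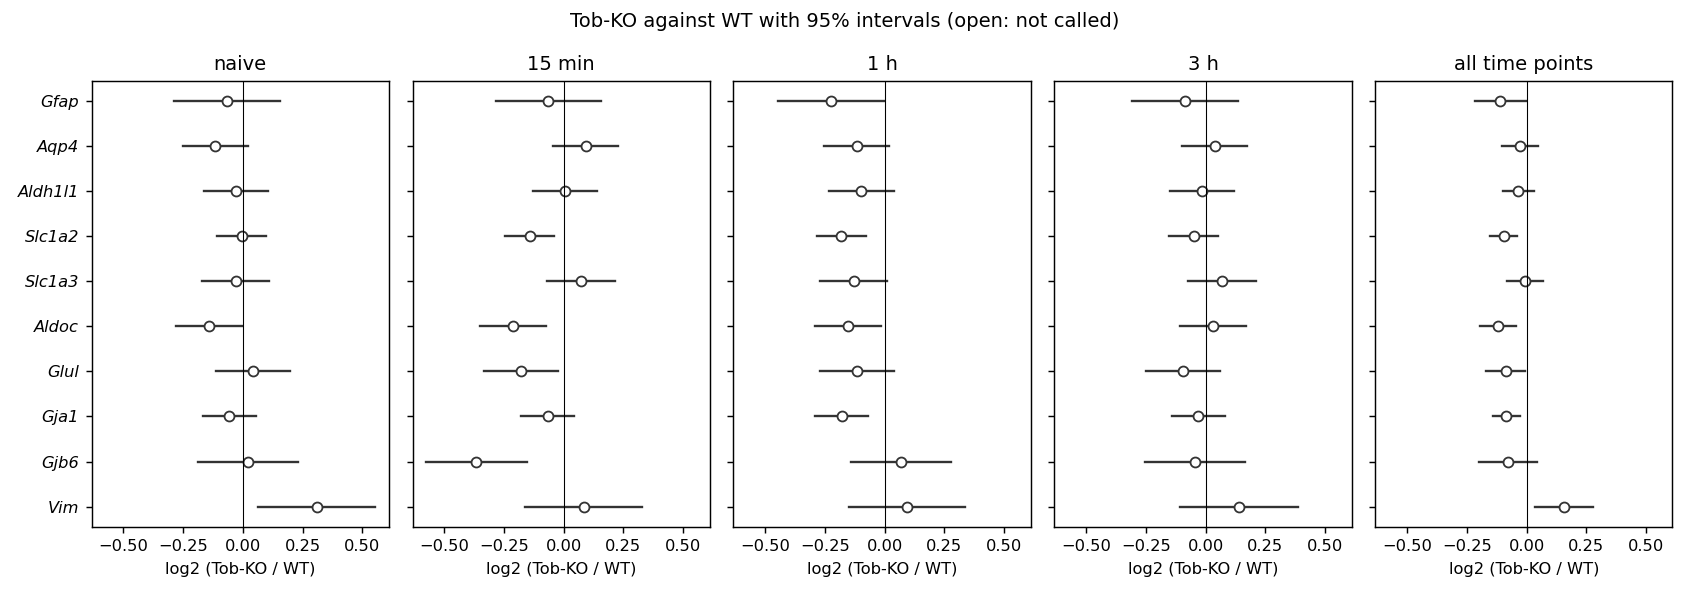
Log2 difference of Tob-KO from WT mice for each gene by time point and averaged over all of them. The widths of the 95% intervals are from the fits over 24 libraries. All points are open because none passed the test, and 8 of 10 lie below 0 at 1 h.

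Some of the further astrocyte genes, a list chosen with earlier results of these data known, rose at 15 min. Of 30 such genes, 4 rose over both genotypes, where 1.68% of all genes were called higher, and none fell. Of the 30 differences, 25 were above 0, with a median log2 difference of 0.1 against 0.00 over all genes. Ppp1r3c, which encodes a protein that directs a phosphatase to glycogen, rose by 0.55 (SE 0.091, adjusted p = 0.00164), from 39.1 ± 3.29 to 57.4 ± 2.14 CPM in WT and from 36.6 ± 2.47 to 53.5 ± 7.94 CPM in Tob-KO mice (SD, n = 3, edgeR fit over all genes). Plpp3, a lipid phosphate phosphatase gene, rose by 0.29 (adjusted p = 0.00481), Kcnj10, which encodes the potassium channel Kir4.1, by 0.23 (adjusted p = 0.0146) and Gpc5, a glypican gene, by 0.19 (adjusted p = 0.0101). At 1 h 1 of the 30, Ppp1r3c, was called, at 0.66 over both genotypes (adjusted p = 0.000204) and at 0.81 in WT mice (adjusted p = 0.0122). The call in WT mice was lost without naive replicate 3 (adjusted p = 0.093), 1 h replicate 1 (0.0692) or 1 h replicate 2 (0.0795). In Tob-KO mice at 15 min 3 of the 30 were called, Plpp3 (0.36), Ppp1r3c (0.55) and Gpc5 (0.23), and in the 6 libraries alone none of these was. Leaving out 15 min replicate 3 ended all of these calls (adjusted p of 0.059 to 0.303), and those of Ppp1r3c and Gpc5 were also lost without naive replicate 1, 2 or 3 or 15 min replicate 1 (0.0554 to 0.114). With the replicate number as a block, Gpc5 was not called there (adjusted p = 0.0534). The calls over both genotypes at either time remained in every fit that left out a library. At 3 h 0 of the 30 were called.

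Of 25 genes known from reactive astrocytes, 1 rose and 1 fell at 15 min over both genotypes, where 4.7% of all genes were called. Fkbp5, an immunophilin gene induced by glucocorticoids, fell by 0.38 (adjusted p = 0.00224), and S1pr3, a sphingosine phosphate receptor gene, rose by 0.37 (adjusted p = 0.0466), a call that was lost without replicate 2 of WT naive or of WT at 15 min, or without any of the 6 Tob-KO libraries (adjusted p of 0.0614 to 0.135), and with the replicate number as a block (0.0602). The fall of Fkbp5 was 0.59 in Tob-KO mice (adjusted p = 0.000403), from 88.1 ± 4.48 to 58.6 ± 2.52 CPM, and in WT mice the level went from 73.1 ± 3.7 to 65 ± 2.47 CPM (SD, n = 3, not called by edgeR, adjusted p = 0.547). The interaction was not called for any of the 25 genes. At 1 h and 3 h 0 of the 25 were called over both genotypes.

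Of 27 relatives of the 10 genes in their families, 25 were expressed enough to be tested. Nes, which encodes the filament protein nestin of progenitors and vessels, was the only relative called with time: at 15 min it rose over both genotypes by 0.44 (adjusted p = 0.00538) and in Tob-KO mice by 0.5 (adjusted p = 0.0287), the latter call being lost without naive replicate 2 or 3 or 15 min replicate 1 or 3 (adjusted p of 0.0583 to 0.154) and in the 6 libraries alone (0.208). None was called at 1 h or 3 h. Aqp1, an aquaporin gene of the choroid plexus, was called higher in Tob-KO mice at 15 min (log2 difference 4.83, adjusted p = 0.000982), at 0.796 to 30.7 CPM against 0.385 to 0.583 CPM in WT mice. The choroid plexus sum in the same libraries was 283.1 to 5275 CPM against 195.4 to 234.4 CPM, with 12 of 12 markers called higher and 10 of 12 not overlapping. The quasi-likelihood test over 24 libraries did not call Aqp1 (adjusted p = 0.377), nor did the exact test without replicate 3 of WT at 15 min (0.0617). Without replicate 2 of Tob-KO at 15 min the difference was 3.51 (adjusted p = 0.00659), and with the replicate number as a block Aqp1 was not called (adjusted p = 0.159).

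Markers of vessels and progenitors moved beside Aqp4 and Gja1 at 15 min. Of 8 endothelial markers 3 were called higher over both genotypes (median 0.3, against 1.68% of all genes called higher), with sums of 161.1 to 217.2 CPM in naive and 226.7 to 299.3 CPM at 15 min in WT mice, and 175.7 to 201.5 against 210 to 234.5 CPM in Tob-KO mice. Of 8 mural and fibroblast markers 2 were called higher, and of 8 neural stem and progenitor markers, which include Nes, 3 were. The progenitor sum in Tob-KO mice was 122.9 to 139.5 CPM when naive and 165.3 to 195.8 CPM at 15 min. None of these markers was at 0 in any library. At 1 h, when Aqp4 and Gja1 were still called, 0 of 8 endothelial markers were called higher and 1 lower (median -0.04). Of the mural and fibroblast markers 7 of 8 differences were then above 0 (median 0.19) and of the progenitor markers 5 of 8 (median 0.07), with 0 called in either list. Of the neuron, oligodendrocyte and microglia markers, 0 of 8 each were called at either time, nor was any of the 12 choroid plexus markers or of the 7 ependyma markers tested out of 8. At 15 min, 8 of 8 microglia (median 0.1), 7 of 8 oligodendrocyte (0.08) and 5 of 8 neuron differences (0.03) were above 0. At 1 h these were 3 of 8 (-0.02), 3 of 8 (-0.01) and 6 of 8 (0.03). With the choroid plexus score of each library as a covariate, the calls of Aqp4, Gja1 and Gjb6 were as before. The part of vessel or progenitor RNA in the results for Aqp4 and Gja1 was not tested.

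Across the 24 libraries the 10 genes did not vary as a unit. Pearson's r of the log2 levels over the 45 pairs of genes had a median of 0.29, exceeded 0.5 in 9 pairs and was below 0 in 11. The highest was that of Aqp4 and Gja1 (0.8), and the lowest that of Aqp4 and Gjb6 (-0.64). With the mean of each group removed, these became 0.38 and -0.27. The values of Gja1 and Gjb6 had an r of -0.3 over all libraries and of 0.37 within groups. The metabolic pair Aldoc and Glul stood at 0.52 over all libraries and at 0.79 within groups, and Slc1a2 and Glul at 0.74 and 0.59. All these describe the same 24 libraries, which share their group structure, cell content and scaling.

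**Figure D5:**
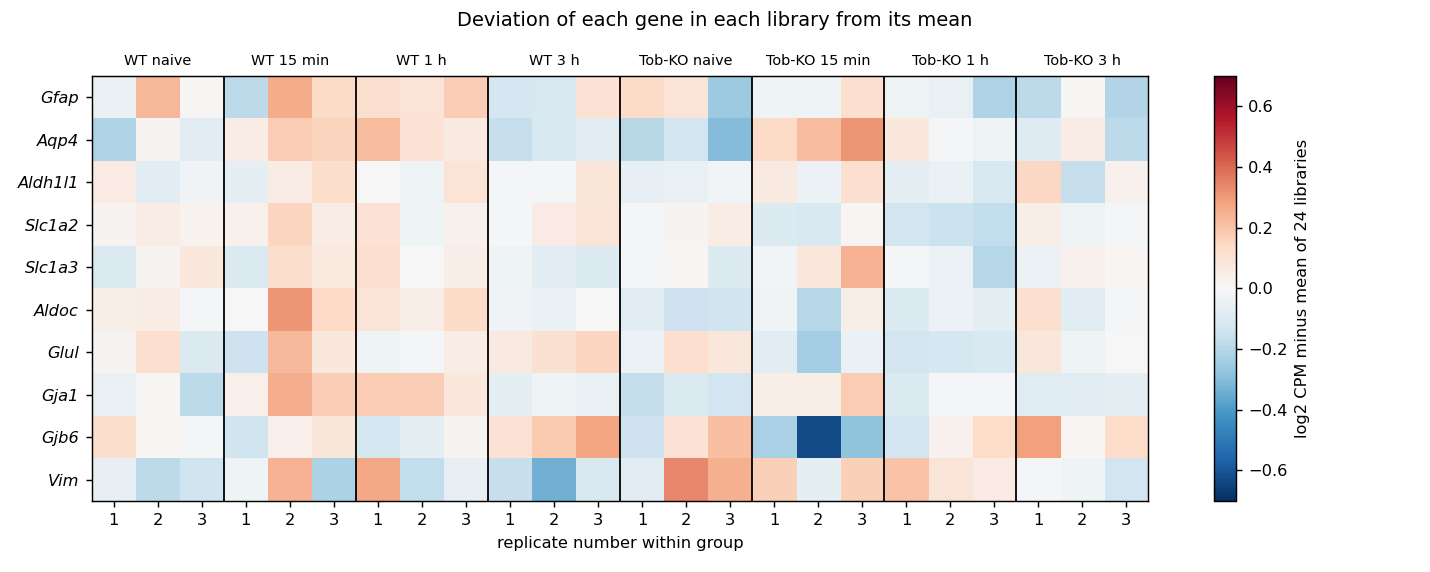
Deviation of the log2 level of each gene in each library from its mean over the 24 libraries (colour, red higher and blue lower), with libraries ordered by group and replicate number. The Aqp4 and Gja1 rows are red in both groups at 15 min, and the darkest blue cell is Gjb6 in Tob-KO replicate 2 at 15 min, the library with 38.08 CPM.

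Among the 11644 genes at a mean of at least 5 CPM, those closest to the mean log2 level of the 10 genes over the 24 libraries were Park7 (r = 0.88), Gpr37l1 (r = 0.82), Tmbim6 (r = 0.815), Cst3 (r = 0.805) and Nkiras2 (r = 0.795). Gpr37l1 encodes a receptor found in astrocytes, and Cst3 encodes the protease inhibitor cystatin C. The mean of the 10 genes and the score of the 30 further astrocyte genes had an r of 0.81 over the 24 libraries, and the single genes ranged in this from -0.21 for Gjb6 to 0.77 for Gja1. Vim had an r of 0.3 with that score, and of 0.53 within groups. With the score of the mural and fibroblast markers its r was 0.62, and 0.74 within groups. With that of the endothelial markers the r of Vim was 0.53, and 0.71 within groups.

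On GRCm38, as given by GENCODE, the genes whose levels changed lie apart from each other. Aqp4 is at chr18:15389496-15410982 and Gjb6 at chr14:57123303-57133611, both on the reverse strand, and Gja1 at chr10:56377330-56402513 on the forward strand. Gfap is at chr11:102887336-102900912 on the reverse strand, and Slc1a2 at chr2:102658659-102790784 and Glul at chr1:153899944-153909723 on the forward strand. Slc1a3 is at chr15:8634124-8710764 on the reverse strand, and Aldoc at chr11:78322968-78327781, Aldh1l1 at chr6:90486427-90600203 and Vim at chr2:13573927-13582826 on the forward strand. Gfap, Slc1a2, Slc1a3, Glul and Aldh1l1 also overlap other annotated genes, so their counts could have been raised or lowered too. Gja1, Gjb6, Aldoc and Vim overlap none.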

How the data were processed

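RNA was purified from hippocampi, poly(A)-selected and sequenced from directional libraries as 150-bp paired-end reads after 8 PCR cycles. Per the labels and the methods of the study, reads were mapped to GRCm38 with STAR 2.6.1d and counted on genes with HTSeq 0.9.0, and the authors deposited raw counts, whole numbers per gene and library. The annotation release, strand setting and handling of duplicates are not given in the sources used here. Without molecular identifiers, counts are not independent molecules. Genotype, time point and replicate were read from the sample titles, and the column named for 0 h was taken as 15 min from the series' design text.

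TMM factors and all fits over the whole table came from edgeR (version 4.0.16, R 4.3.3). Tob-KO was compared with WT at each time point with the exact test on the 6 libraries compared (at least 0.2 CPM in 2 of them, FDR at most 0.05, p at most 0.05, fold change at least 2). Changes with time, the interaction and the averaged genotype difference used the quasi-likelihood test over 24 libraries (8 group means with 16 residual degrees of freedom, or genotype plus time point with 19) at an FDR of at most 0.05. Standard errors and interval widths are from these fits. For the genotypes at a single time point, the width was set around the exact-test estimate, and the adjusted p is from the exact test. The 11 lists of further genes hold 150 entries. The 10 genes and the lists were chosen with earlier results of these data known. All 10 genes were named, then at most 5 called genes per list and comparison with the smallest adjusted p, and the 5 genes most like the mean of the 10. Positions were taken from GENCODE and promoters from RefSeq. Alternatives were RLE and library-size scaling, no filter, DESeq2 1.42.0, other fold limits, other sets of libraries, a choroid plexus covariate, a replicate block and leaving out each library. The model code was tested on simulated data. Figures were drawn in Python 3.11.15 with matplotlib 3.10.9.

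The groups share replicate numbers. Over 6501 genes, deviations of same-numbered libraries from their group means correlated at 0.624, 0.609 and 0.129 between naive and 15 min in Tob-KO mice. All 3 were above 0.1, while in the other 9 comparisons at least 1 number was not. Between naive and 3 h in Tob-KO mice, replicate 1 gave -0.647. Whether the numbers mark pairs cannot be told from these correlations. The reported tests hold no term for the replicate number, which entered only as the block among the alternatives. Replicates are separate mice per the series' design text.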

Additional observations from a re-analysis of the deposited data

How the results depend on the processing

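Of 2580 values recomputed for the 10 genes, 2556 stayed on the same side of the threshold, 19 lost and 5 gained a call, and no called value changed sign. An opposite sign was seen in 82 values, all uncalled (adjusted p of at least 0.735) and reported at 0.083 or less in size on the log2 scale. Requiring a fold change of at least 2 left 0 of the 10 called in Tob-KO mice at 15 min and over both genotypes at 15 min and 1 h. DESeq2 called 1 gene in WT mice at 15 min and 1 at 1 h (Gja1 both times), 2 in Tob-KO mice at 1 h (Aqp4 and Slc1a2) and 1 between the genotypes over all time points (Slc1a2). With only the 6 libraries compared, 0 were called in Tob-KO mice at 15 min (adjusted p = 0.0914 for Aqp4, 0.212 for Gja1 and 0.265 for Gjb6, edgeR). Fits without single libraries gave from 1 to 2 calls there, and 2 in all 12 fits each over both genotypes at 15 min and 1 h. With the replicate block, the number called among the 10 was as reported in each comparison: 3 in Tob-KO mice at 15 min, 2 over both genotypes at 15 min, 2 at 1 h and 0 elsewhere. Scaling by library size alone in place of TMM moved the median of all genes by at most 0.01 on the log2 scale. Of the 30 further astrocyte genes, 3 were called in Tob-KO mice at 15 min, against 6 by DESeq2, 0 in the 6 libraries alone and 0 to 5 with a library left out. Over both genotypes at 15 min 4 were called, and 4 to 6 with a library left out. DESeq2 called 3 of them between the genotypes over all time points, where edgeR called 0. A fold change of at least 2 left 0 genes of the 3 lists called with time.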
